A study of Mus musculus with 12 samples.

Results

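The interferon-induced transmembrane (IFITM) genes Ifitm1, Ifitm2, Ifitm3 and Ifitm5 were followed through 4 kinds of mouse T cell preparation. A probe set was taken as a member when the array annotation gave it a single gene symbol and that symbol was Ifitm1, Ifitm2, Ifitm3 or Ifitm5. There were 4 such probe sets, 1 for each gene, among 45037 probe sets tested (4 of 18193 named genes). Affymetrix mouse genome-wide arrays had been hybridised with RNA from T cells of the spleens of female C57BL/6 mice, 8 to 12 weeks old. The first group comprised 5 cultures of CD8+ cells expanded with anti-CD3 and anti-CD28 on beads and high-dose interleukin 2 (IL-2) (CD8+ NKT-like cells). The second comprised 3 cultures of CD4+ cells expanded by the same protocol (cultured CD4+ cells). The third was 2 samples of CD8+ cells stimulated with low-dose soluble anti-CD3 and anti-CD28 (activated CD8+ cells), and the fourth was 2 samples of freshly isolated naive CD8+ cells. The CD8+ cells had been enriched by negative selection on magnetic columns and the CD4+ cells sorted by flow cytometry. As naive CD4+ cells were not used here, differences between cultured CD4+ and naive CD8+ cells hold lineage as well as culture. The study describes its cultures as independent, and n below counts arrays.

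IFITM proteins are short membrane proteins with a conserved CD225 domain. Ifitm1, Ifitm2 and Ifitm3 are induced by type I and type II interferons and restrict the entry of enveloped viruses at the plasma membrane and in endosomes, and IFITM proteins also associate with tetraspanins such as CD81 in lymphocyte membranes. Ifitm5 is a bone-restricted member made by osteoblasts and is not typically induced by interferon. Interferon-induced genes carry binding sites for interferon-activated transcription factors in their promoters, among them the interferon-stimulated response element (ISRE) and the gamma-activated site (GAS).

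The promoters of the 3 interferon-induced members are shown because all 3 were higher in both expanded cultures than in activated or naive cells. Each runs from 250 bases before to 30 bases after the annotated start (RefSeq, GRCm38.p6, 5' to 3' on the gene's strand). Capitals mark matches to the ISRE core (GAAA, any 2 bases, GAAA) or the GAS pattern (TTCNNNGAA), searched on both strands.
Ifitm1 (chr7:140967826-140968105, plus strand): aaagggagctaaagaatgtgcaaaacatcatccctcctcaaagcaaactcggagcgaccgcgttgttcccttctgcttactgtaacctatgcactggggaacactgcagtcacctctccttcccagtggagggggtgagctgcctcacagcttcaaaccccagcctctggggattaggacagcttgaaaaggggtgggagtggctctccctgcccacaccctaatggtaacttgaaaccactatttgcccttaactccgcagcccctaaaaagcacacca
Ifitm2 (chr7:140955932-140956211, minus strand): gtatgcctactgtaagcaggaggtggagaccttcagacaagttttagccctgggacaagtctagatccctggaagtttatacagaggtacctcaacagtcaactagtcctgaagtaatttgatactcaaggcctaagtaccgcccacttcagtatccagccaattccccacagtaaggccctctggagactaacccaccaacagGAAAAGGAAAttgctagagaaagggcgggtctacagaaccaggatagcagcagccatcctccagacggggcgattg
Ifitm3 (chr7:141010715-141010994, minus strand): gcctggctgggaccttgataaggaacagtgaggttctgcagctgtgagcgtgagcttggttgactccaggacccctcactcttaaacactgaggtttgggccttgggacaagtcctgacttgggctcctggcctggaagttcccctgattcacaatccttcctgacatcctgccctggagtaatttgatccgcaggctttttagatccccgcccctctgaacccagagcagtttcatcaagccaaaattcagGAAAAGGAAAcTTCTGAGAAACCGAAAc
Ifitm2 held 1 ISRE core, GAAAAGGAAA, whose first base lay at -46 from the start. Ifitm3 held the same 10 bases at position 3 and a second ISRE core, GAAACCGAAA, at position 20, with a GAS match, TTCTGAGAA, at position 14 that overlapped the second core. No match was found in the windows of Ifitm1 and Ifitm5, each searched over 300 bases. Among 32851 promoter windows of the same length, 3.44% held an ISRE core and 8.30% a GAS match. Of 51 other interferon-induced genes, with 64 windows between them, 21 held an ISRE core and 14 a GAS match in at least 1 window, a count per gene that is not on the scale of the shares per window. These matches describe letters in 1 window per member, and no binding was measured.

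The 12 arrays had medians between 6.23 and 6.42 on the log2 scale. NKT-like replicate 2 held 44887 distinct values, against 38921 to 40539 in the other arrays, and leaving it out changed no count of called IFITM members. T cell markers (6 measured) averaged 9.59 to 11.05 in every array, and NKT-like minus cultured CD4+ log2 differences were 4.18 for Cd8a, 4.82 for Cd8b1 and -3.10 for Cd4, as labelled. Of 2 NK cell markers measured, Ncr1 averaged 5.99 to 6.26 in the 4 groups. Eomes, which CD8+ T cells also express, averaged 11.68 in NKT-like, 6.54 in cultured CD4+, 9.81 in activated and 10.10 in naive cells, and was called higher in all 3 NKT-like comparisons. B cell markers (7 measured) averaged 5.95 to 6.58 in the NKT-like, cultured CD4+ and activated arrays, against 8.41 and 8.06 in the naive arrays, where red cell precursor markers (5 measured) also averaged 9.17 and 9.58, against 6.47 to 6.85 elsewhere. Monocyte, macrophage and granulocyte markers (8 measured) averaged 5.99 to 6.58 in all 12 arrays. The part of other cells in the values was not tested. Probe sequences were not used here, and cross-hybridisation between the similar IFITM transcripts was not tested.

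Ifitm1, whose human counterpart lies mainly in the plasma membrane, was highest in the NKT-like cells. Its log2 values were 13.62, 13.88, 13.91, 13.85 and 13.99 in the 5 NKT-like cultures. They were 9.36, 10.54 and 10.65 in the 3 cultures of CD4+ cells, 7.85 and 7.99 in the activated cells and 7.14 and 7.58 in the naive cells. The 4 groups did not overlap, in the order NKT-like, cultured CD4+, activated and naive, although the activated and naive cells were not told apart by the test.

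Ifitm2, whose human counterpart is found largely in endosomes and lysosomes, had the same order. Its values were 12.25, 12.32, 12.50, 12.71 and 12.52 in NKT-like cells and 9.39, 10.97 and 11.03 in cultured CD4+ cells. They were 7.92 and 7.26 in activated cells and 7.08 and 6.81 in naive cells. Every NKT-like array was above every cultured CD4+ array, and every cultured CD4+ array was above all 4 activated and naive arrays.

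Ifitm3, the endosomal member best known for restriction of influenza virus, was high in both expanded cultures. It measured 11.46, 11.77, 11.93, 12.27 and 12.23 in NKT-like cells and 10.25, 11.85 and 11.77 in cultured CD4+ cells. It measured 7.45 and 6.56 in activated cells and 7.59 and 7.06 in naive cells. The NKT-like and cultured CD4+ values overlapped, as did the activated and naive values, and a wide gap lay between these pairs of groups. Cultured CD4+ replicate 1 was the lowest of its group for Ifitm1, Ifitm2 and Ifitm3.

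Ifitm5 lay between 7.0 and 7.45 in all 12 arrays and its 4 groups overlapped. Its means were 7.32 ± 0.10 in NKT-like cells (SD, n = 5), 7.22 ± 0.20 in cultured CD4+ cells (n = 3), 7.25 ± 0.23 in activated cells (n = 2) and 7.18 ± 0.13 in naive cells (n = 2).

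**Figure D1:**
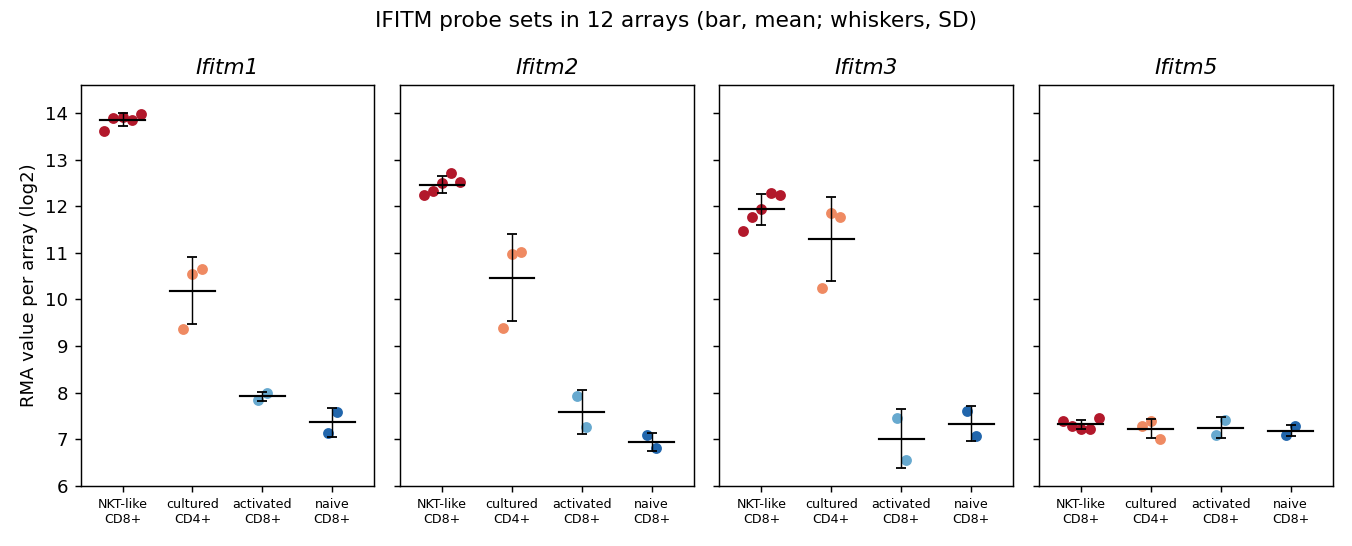
RMA log2 value of the probe sets of Ifitm1, Ifitm2, Ifitm3 and Ifitm5 (vertical axis) in the NKT-like, cultured CD4+, activated and naive arrays (horizontal axis); each point is an array, bars are group means and whiskers are SDs. Ifitm1 separates NKT-like arrays (13.62 to 13.99) from cultured CD4+ arrays (9.36 to 10.65), Ifitm3 does not (11.46 to 12.27 against 10.25 to 11.85), and Ifitm5 stays between 7.0 and 7.45.

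NKT-like minus cultured CD4+ differences set CD8+ against CD4+ cells after 1 culture protocol. Ifitm1 and Ifitm2 were higher in NKT-like cells and Ifitm3 and Ifitm5 did not pass the test, so that 2 of 4 members were called higher, where 0.85% of all probe sets were called higher. IFITM genes are among those the study drew from these same samples, so their direction here is not independent evidence. A probe set was called at a Storey q-value of 0.01 or less in a limma fit over all 12 arrays. Ifitm1 was 12.7-fold higher (log2 difference 3.66 ± 0.25 SE, 95% interval 3.11 to 4.21, q = 8.76e-06) and ranked 35 from the top of the 45037 probe sets. Ifitm2 was 3.99-fold higher (2.00 ± 0.33, interval 1.28 to 2.71, q = 0.00441). Its q was 0.0106, 0.0117 and 0.0125 without NKT-like replicate 3, 4 or 5, which left 1 member called. For Ifitm3 the log2 difference was 0.64 ± 0.36 (interval -0.15 to 1.44, q = 0.418), and it was 0.12 without cultured CD4+ replicate 1. For Ifitm5 it was 0.09 ± 0.12 (interval -0.16 to 0.35, q = 0.74).

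Whether the members separated these cultures by different amounts was tested on the difference between 2 members within each array. The log2 difference of Ifitm1 exceeded that of Ifitm3 by 3.02 units, an 8.11-fold ratio of folds. This contrast was 1.67 units for Ifitm1 over Ifitm2 and 1.35 units for Ifitm2 over Ifitm3. These 3 pairs, and the pairs of Ifitm1 with Ifitm5 (3.57) and Ifitm2 with Ifitm5 (1.90), did not overlap between the 5 NKT-like and 3 cultured CD4+ arrays (exact two-sided permutation test, p = 0.0357 each, the smallest that 56 regroupings allow, adjusted p = 0.0429 over 6 pairs). The pair of Ifitm3 and Ifitm5 gave a contrast of 0.55 (exact permutation test, p = 0.357, adjusted p = 0.357). With any 1 of the 8 arrays left out, the smallest p that this test can give is 0.0571 or more. The contrasts of Ifitm1 with Ifitm3 then lay between 2.92 and 3.13.

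Against naive CD8+ cells, the cells from which the NKT-like cultures were grown, 3 of 4 members were higher in NKT-like cells, where 7.83% of all probe sets were. Ifitm1 was 89.9-fold higher (log2 difference 6.49 ± 0.29 SE, q = 7.95e-08) and ranked 11 among 45037 probe sets by its difference. Ifitm2 was 45.6-fold higher (5.51 ± 0.37, q = 2.24e-06, rank 24) and Ifitm3 24.3-fold higher (4.61 ± 0.41, q = 1.69e-05, rank 41). Ifitm5 differed by 0.13 ± 0.13 (interval -0.16 to 0.43, q = 0.201). In naive cells Ifitm1, Ifitm2 and Ifitm3 averaged 7.36, 6.95 and 7.33, beside 7.18 for Ifitm5. How far background signal limits folds against naive cells was not tested. The median log2 difference over all probe sets was -0.10 here. In these bulk samples, fewer cells that make a transcript and less of it per cell cannot be told apart. B cell and red cell precursor markers were higher in the naive arrays (6 of 7 and 4 of 5 called lower in NKT-like cells), and their part in these differences was not tested.

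Against activated CD8+ cells, which received the same 2 signals in soluble form at a low dose, 3 of 4 members were again higher in NKT-like cells, where 2.19% of all probe sets were. The NKT-like cultures also had high-dose IL-2 and were expanded for more than a week. Form and dose of the signals, IL-2 and time in culture cannot be told apart in this comparison. Ifitm1 was 61.1-fold higher (5.93 ± 0.29, q = 1.39e-06, rank 9), Ifitm3 30.4-fold (4.93 ± 0.41, q = 4.4e-05, rank 24) and Ifitm2 29.2-fold (4.87 ± 0.37, q = 2.42e-05, rank 25). B cell markers averaged 6.01 to 6.32 in NKT-like arrays and 6.55 to 6.58 in activated arrays, and red cell precursor markers averaged 6.47 to 6.65 in NKT-like arrays and 6.65 to 6.85 in activated arrays. Ifitm5 differed by 0.07 ± 0.13. In activated cells Ifitm1, Ifitm2 and Ifitm3 averaged 7.92, 7.59 and 7.01, beside 7.25 for Ifitm5. How far background signal limits folds against activated cells was not tested.

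Cultured CD4+ cells were higher than naive CD8+ cells for 3 of 4 members, where 8.18% of all probe sets were higher. The log2 differences were 2.83 ± 0.31 for Ifitm1 (7.10-fold, q = 6.87e-05), 3.52 ± 0.41 for Ifitm2 (11.4-fold, q = 9.53e-05) and 3.96 ± 0.45 for Ifitm3 (15.6-fold, q = 8.61e-05). Ifitm1 thus had the smallest of these 3 estimates here and the largest in the NKT-like cells. The difference between these orders against naive cells was not tested apart from the member contrasts above. B cell and red cell precursor markers (5 of 7 and 4 of 5) were called lower in cultured CD4+ cells, and their part was not tested. All comparisons with naive cells share the 2 naive arrays, and those with activated cells share the 2 activated arrays.

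Against activated CD8+ cells, cultured CD4+ cells were higher for 3 of 4 members, where 1.11% of all probe sets were. Lineage, stimulus and culture cannot be told apart in this comparison. The folds were 4.82 for Ifitm1 (2.27 ± 0.31, q = 0.002), 7.32 for Ifitm2 (2.87 ± 0.41, q = 0.00246) and 19.5 for Ifitm3 (4.28 ± 0.45, q = 0.000384). All 3 calls were lost when these groups were fitted without the others and when the replicate number was a block. Without cultured CD4+ replicate 2, or without activated replicate 2, Ifitm3 was the only member called. Without cultured CD4+ replicate 3 the q of Ifitm2 was 0.0118.

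No member was called between activated and naive cells. Activated minus naive log2 differences were 0.56 ± 0.34 for Ifitm1 (q = 0.23), 0.64 ± 0.45 for Ifitm2 (q = 0.274), -0.32 ± 0.50 for Ifitm3 (q = 0.479) and 0.07 ± 0.16 for Ifitm5 (q = 0.538), so that 0 of 4 members were called in the limma fit, and 0 had an unadjusted p under 0.05, where 3.1% of all probe sets were called higher and 2.6% lower. The 95% intervals were wide with 2 arrays a group and reached 1.31 for Ifitm1, 1.63 for Ifitm2 and 0.77 for Ifitm3. In both groups the means of these genes lay within 1 log2 unit of that of Ifitm5. The part of background signal was not tested.

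**Figure D2:**
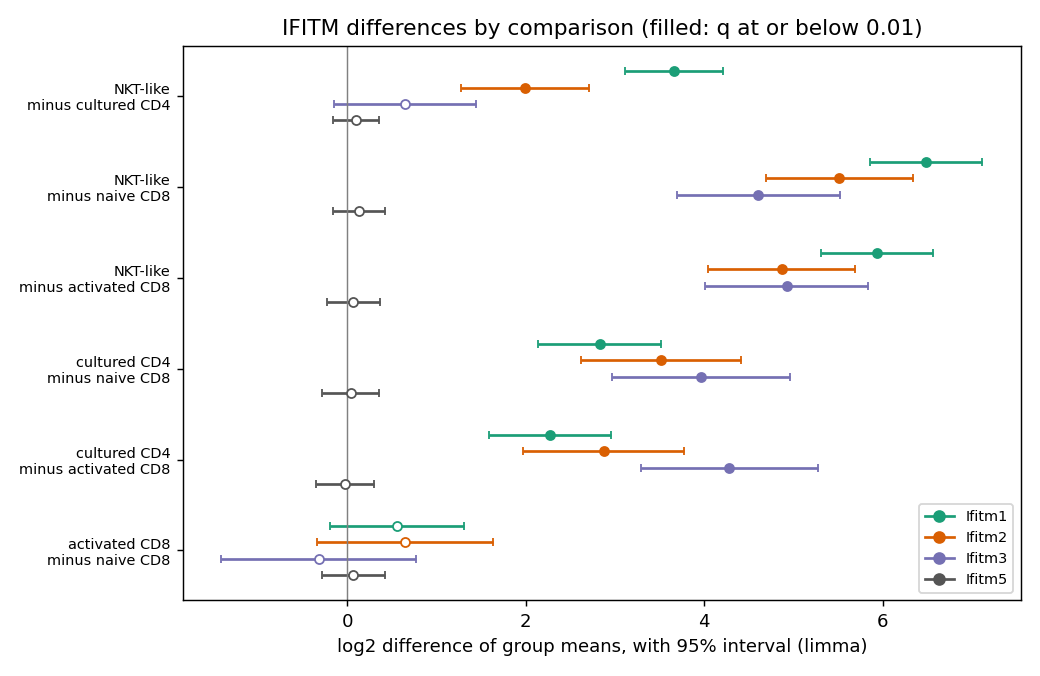
Log2 difference of group means with 95% interval (horizontal axis) for the 4 IFITM members in each of 6 comparisons (vertical axis), the group named first minus the group named second; filled points have q at or below 0.01. Ifitm1 has the largest estimate in the 3 NKT-like comparisons (3.66, 6.49 and 5.93), Ifitm3 the largest in cultured CD4+ minus naive (3.96) and minus activated (4.28), and all 4 intervals cross 0 in activated minus naive.

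Among other interferon-induced genes, more of those called were lower than higher in NKT-like cells against cultured CD4+ or naive cells. Of 84 such genes listed, 73 had a usable probe set, 41 from a type I interferon list and 32 from an interferon gamma list. The others had no probe set with their symbol alone and were not analysed here. In NKT-like minus cultured CD4+ cells 3 of the 73 were higher and 11 lower (median log2 difference -0.31), where 1.19% of named genes were higher and 1.79% lower and the median over all named genes was -0.003. Above Ifitm1 in this comparison stood 1 of the 73, Fgl2, a secreted fibrinogen-like protein with suppressive activity that T cells can release.

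Of the 3 largest of these differences in size, those of Ifi27l2a and Gbp2 ran against Ifitm1 and that of Fgl2 with it. Ifi27l2a, a small membrane protein induced by type I interferon, had log2 values of 6.79 to 7.55 in NKT-like cells and 11.98 to 12.94 in cultured CD4+ cells, which made it 38.6-fold lower (-5.27 ± 0.25, q = 6.37e-07). Gbp2, a guanylate-binding GTPase induced by interferon gamma, had values of 6.62 to 7.85 in NKT-like cells and 12.20 to 12.64 in cultured CD4+ cells (-5.07 ± 0.29, q = 2.74e-06). The groups did not overlap for either gene. The immunity-related GTPases Iigp1 (-4.32), Ifi47 (-2.38) and Irgm2 (-2.25) were lower too. Higher in NKT-like cells were Fgl2 (5.17 ± 0.28, q = 1.47e-06), the transcription factor Irf8 (2.93 ± 0.29, q = 0.000156) and the antiviral factor Samd9l (1.90 ± 0.25, q = 0.00103). Each of these 8 calls held when any 1 array was left out.

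In NKT-like minus naive cells 7 of the 73 were higher (9.59%) and 23 lower (31.5%) (median -0.32), where 10.3% of named genes were higher and 6.87% lower. The share called higher was thus near that of all named genes. Most of the lower genes belonged to the type I list, with 2 of 41 higher and 19 lower. They included Rtp4, a chaperone of receptors (-3.70 ± 0.27, q = 4.13e-06), Ifi27l2a (-3.21 ± 0.28), Ifit1, which binds viral RNA (-2.82 ± 0.32), Usp18, a protease that removes ISG15 and damps interferon signalling (-2.55 ± 0.42), and Trim30a (-2.31 ± 0.32). Rtp4 was at -1.91 when all its probe sets were averaged, and still called. The higher ones were led by Fgl2 (5.03 ± 0.32), Irf8 (3.85 ± 0.33), the immunoproteasome subunit Psmb8 (1.63 ± 0.40), the virus tether Bst2 (1.46 ± 0.26) and the GTPase Mx1 (1.33 ± 0.36). None of the 73 had as large a positive difference as Ifitm1 (6.49) or Ifitm2 (5.51), and 1 of them, Fgl2, exceeded Ifitm3. The call of Usp18 was lost without naive replicate 1 alone, and those of Trim30a and Bst2 without naive replicate 2 alone. Those of Psmb8 and Mx1 were lost without either naive array and without several other arrays. Leaving out naive replicate 1 or 2 left 15 or 10 of the 73 called, against 30 with both. B cell and red cell precursor markers (6 of 7 and 4 of 5) were called lower in NKT-like cells. Among them Jchain averaged 12.92 in naive and 5.65 in NKT-like cells, and Car1 11.59 and 6.19. The part of such cells in the lower interferon-induced genes was not tested.

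In activated minus naive cells, where no IFITM gene was called, other interferon-induced genes went both ways. Of the 73, 4 were higher (5.48%) and 9 lower (12.3%) (median -0.23), where 4.06% of named genes were higher and 2.67% lower. The share called higher was thus near that of all named genes. All 4 higher genes were on the interferon gamma list, which also held 2 of the lower ones, Gbp8 among them. Irf8 (4.26 ± 0.40, q = 8.53e-05), Iigp1 (2.50 ± 0.33, q = 0.000738), Gbp2 (2.20 ± 0.40, q = 0.00399) and the tryptophanyl-tRNA synthetase Wars (1.02 ± 0.19, q = 0.00442) were higher. Gbp8 (-3.26 ± 0.66), Rtp4 (-3.00 ± 0.33), Samd9l (-2.96 ± 0.34), Ifit1 (-2.20 ± 0.38) and the nuclear body protein Sp100 (-1.63 ± 0.31) were lower. Averaged over all their probe sets, Rtp4 was at -1.53 and still called, and Sp100 was at -0.93 and no longer called. B cell and red cell precursor markers (3 of 7 and 4 of 5) were called lower in activated cells, and their part was not tested. With activated replicate 1, naive replicate 1 or naive replicate 2 left out 5 of the 73 were called in each case, against 13. The calls of Irf8, Rtp4 and Samd9l held when any 1 array was left out, and the other 6 named here were each lost without at least 1 array.

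In the remaining comparisons the 73 genes gave 3 higher and 4 lower in NKT-like minus activated cells (3.17% and 0.973% of named genes), 13 higher and 12 lower in cultured CD4+ minus naive cells (11% and 5.9%), and 6 higher and 1 lower in cultured CD4+ minus activated cells (1.45% and 0.33%). None of the 73 exceeded Ifitm3 in cultured CD4+ cells against naive or activated cells. Without naive replicate 2, 13 of the 73 were called in cultured CD4+ minus naive cells, against 25. In cultured CD4+ minus activated cells 3 were called without cultured CD4+ replicate 2 or 3 or activated replicate 2 and 4 without NKT-like replicate 4, against 7.

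**Figure D3:**
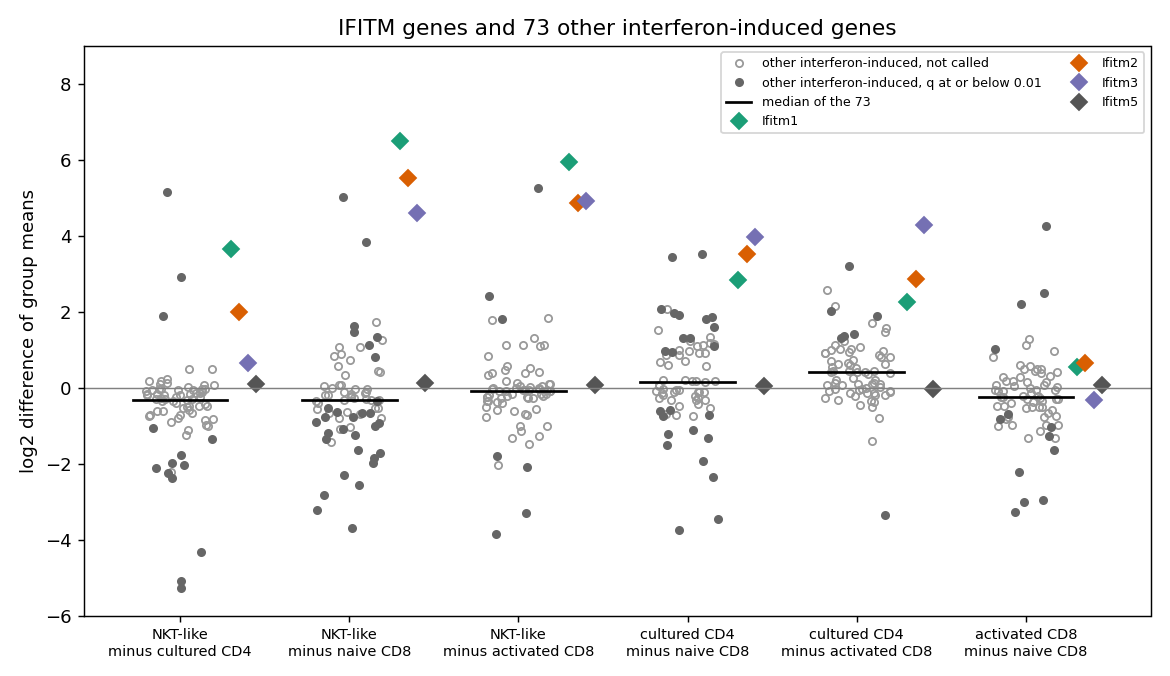
Log2 difference of group means (vertical axis) in 6 comparisons (horizontal axis) for 73 other interferon-induced genes (circles, filled where q was at or below 0.01, black bars at their medians) and for the 4 IFITM members (diamonds). In each NKT-like comparison at most 2 of the 73 lie above Ifitm1 or Ifitm2, and the medians of the 73 are -0.31, -0.32 and -0.07. Against cultured CD4+ cells Fgl2 (5.17) and Irf8 (2.93) lie above Ifitm2 (2.00).

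Ifng, which encodes interferon gamma, was variable in both expanded cultures. Its log2 values were 8.43, 11.51, 10.54, 7.85 and 11.80 in NKT-like cells and 6.84, 11.65 and 11.52 in cultured CD4+ cells. They were 12.45 and 12.28 in activated cells, where IFITM values were low, and 4.35 and 4.35 in naive cells. Relative to naive cells, Ifng was 51.2-fold higher in NKT-like cells (5.68 ± 1.33, q = 0.00485), and NKT-like and cultured CD4+ cells differed by 0.02 ± 1.16 (q = 0.873). The NKT-like call had a q of 0.0359 or 0.0667 without naive replicate 1 or 2. The SD over the 5 NKT-like arrays was 1.80 for Ifng and 0.14 for Ifitm1. Ifitm1 lay at percentile 99.81 to 99.94 of these arrays, and whether signal is compressed there was not tested. Cultured CD4+ replicate 1 was low for Ifng as it was for Ifitm1, Ifitm2 and Ifitm3. This array also stood apart over all probe sets. Its values correlated with cultured CD4+ replicates 2 and 3 at r = 0.981 and 0.978, against 0.995 between those 2. A link between Ifng and IFITM values was not tested.

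Of 17 measured genes of interferons, their receptors and signalling, 1 was called in NKT-like minus cultured CD4+ cells, as lower, where 1.79% of named genes were lower and 1.19% higher. That gene was Jak2, a kinase of the interferon gamma receptor (-2.21 ± 0.17, q = 2.5e-05). At an unadjusted limma p under 0.05, 2 of the 17 genes were higher and 4 lower. The share of all named genes at that p is not given here, so this count has no background to be read against. The receptor chain Ifngr1 averaged 10.48 ± 0.50 in NKT-like cells (SD, n = 5) and 9.13 ± 0.34 in cultured CD4+ cells (n = 3), a difference of 1.35 ± 0.29 that was not called (q = 0.0218). Ifngr1 was higher in NKT-like than in activated cells (2.33 ± 0.34, q = 0.00155). The difference was 1.88 to 2.77 with any array left out, and only without activated replicate 2 was it not called (q = 0.0314). The second chain, Ifngr2, was lower in NKT-like cells than in naive ones (-1.18 ± 0.20, q = 0.000924), with a q of 0.0338 without naive replicate 2. A second probe set of Ifngr2 differed by -0.44 there and was not called (q = 0.0232). The transcription factor Irf1 was lower as well (-0.91 ± 0.24, q = 0.00904), a call lost without any 1 of 8 arrays. Il10, the suppressive cytokine, which like Jak2 was named after its values were seen, was higher in NKT-like cells than in naive ones (5.56 ± 0.77, q = 0.00026). High Il10 was not particular to NKT-like cells. Its mean was 12.15 ± 0.40 in cultured CD4+ cells (SD, n = 3) and 10.77 ± 1.48 in NKT-like cells (n = 5). Il10 was not called between these 2 cultures.

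Among partners of IFITM proteins, the tetraspanin Cd81 ran opposite to Ifitm1 between the cultures. Cd81 had log2 values of 6.71, 6.37, 6.70, 6.72 and 6.08 in NKT-like cells and 10.40, 10.31 and 10.37 in cultured CD4+ cells. It had 8.77 and 8.01 in activated cells and 8.12 and 7.76 in naive cells. The NKT-like arrays were below all 7 others and the cultured CD4+ arrays above all 9 others. In NKT-like cells Cd81 was 14.3-fold below cultured CD4+ cells (-3.84 ± 0.19, q = 9.39e-07) and lower than in activated cells (-1.87 ± 0.22, q = 0.000433). It was also lower than in naive cells (-1.42 ± 0.22, q = 0.000544), with a q of 0.0114 without naive replicate 1. Of 9 partners and modifiers measured, Cd81 was the only one called between NKT-like and cultured CD4+ cells. Among all named genes 1.19% were called higher there and 1.79% lower. Against naive cells 1 of the 9 was called higher and 1 lower, where 10.3% and 6.87% of named genes were. Against activated cells 1 was called higher and 1 lower, where 3.17% and 0.973% were. With 9 genes, these counts are not read as a result about the list. The ubiquitin ligase Nedd4, which targets IFITM3 for degradation in human cells, was higher in NKT-like cells than in naive ones (1.48 ± 0.26, q = 0.00114, 0.0351 without naive replicate 2). The methyltransferase Setd7 was higher in NKT-like than in activated cells (1.27 ± 0.22, q = 0.00387, 0.0561 without activated replicate 2).

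**Figure D4:**
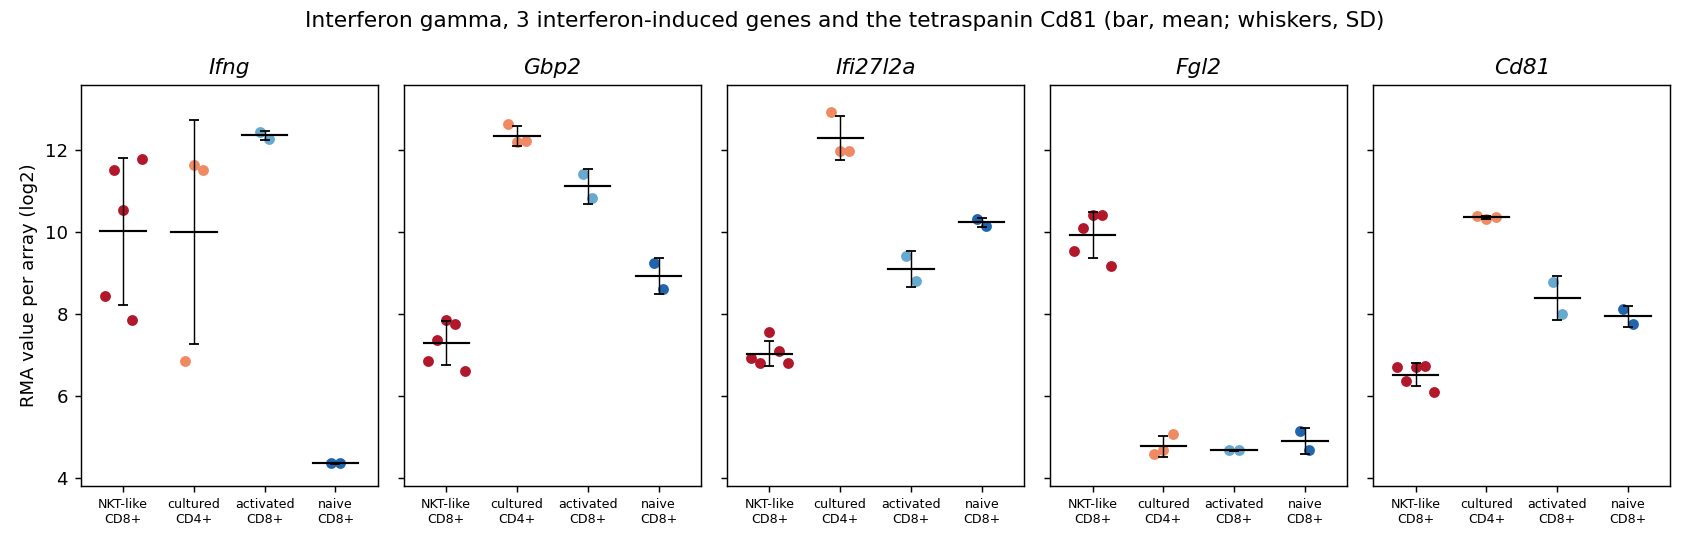
RMA log2 value per array (vertical axis) of Ifng, Gbp2, Ifi27l2a, Fgl2 and Cd81 in NKT-like, cultured CD4+, activated and naive cells (horizontal axis); points are arrays, bars are means and whiskers are SDs. Gbp2, Ifi27l2a and Cd81 are lowest in NKT-like cells and highest in cultured CD4+ cells, Fgl2 is high in NKT-like cells alone (9.17 to 10.42), and Ifng is highest in activated cells (12.45 and 12.28).

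Of 7 measured relatives that share the CD225 domain, none was called between NKT-like and cultured CD4+ cells. Among all named genes 1.19% were called higher there and 1.79% lower, so that no call among 7 genes is near that share. At an unadjusted limma p under 0.05, for which the share of all named genes is not given here, Ifitm10 was higher (0.69) and Ifitm6 lower (-0.71). Ifitm10 was lower in NKT-like cells than in naive ones (-0.80 ± 0.19, q = 0.00474), a call lost without NKT-like replicate 1 or 4 or either naive array. It was also lower than in naive cells in cultured CD4+ cells (-1.49 ± 0.20, q = 0.000264, called with any array left out) and in activated cells (-1.41 ± 0.22, q = 0.00202, lost without activated replicate 1 or naive replicate 1). Ifitm6, the next gene after Ifitm3 on the chromosome, had values of 6.54 to 7.39 in NKT-like cells and 6.87 to 8.09 in cultured CD4+ cells, and it was not called in any of the 6 comparisons.

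The 4 members lie side by side on chromosome 7 in the order Ifitm5, Ifitm2, Ifitm1 and Ifitm3 (RefSeq gene order, GRCm38.p6), with 1 pseudogene and 1 long non-coding RNA between Ifitm1 and Ifitm3. Of the 5 genes on each side, 7 had a usable probe set (Cox8b, Nlrp6 and Pgghg before the cluster, and Ifitm6, B4galnt4, Pkp3 and Sigirr after it). B4galnt4, a glycosyltransferase gene, was called higher in NKT-like minus cultured CD4+ cells (2.19 ± 0.37, q = 0.00551), though its q was 0.0109 to 0.0156 without NKT-like replicate 4 or 5, cultured CD4+ replicate 2 or 3, or either naive array. Against naive cells 3 of the 7 were higher in NKT-like cells, where 10.3% of named genes were, B4galnt4 (3.66 ± 0.43, q = 9.31e-05), the desmosomal protein gene Pkp3 (1.34 ± 0.15, q = 7.84e-05) and Pgghg (1.12 ± 0.22, q = 0.00213, 0.0605 without naive replicate 2). Of the 4 not called, Sigirr, an inhibitor of interleukin 1 receptor signalling, differed by 1.01 ± 0.31 (q = 0.0151) with no overlap of the groups, and Cox8b, Nlrp6 and Ifitm6 differed by -0.11, -0.002 and 0.28.

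The genes whose pattern was most like each member were ranked among 18192 others by the root mean square difference of log2 values over the 12 arrays, each gene centred on its own mean. For Ifitm1 the nearest were the nucleotide sugar receptor P2ry14 (0.38 log2 units), AA467197 (0.59), the granzyme Gzme (0.66), Ifitm2 (0.73) and the proteoglycan Esm1 (0.78), while Ifitm3 ranked 29. For Ifitm2 they were the GTPase Gem (0.46), the inhibitory receptor Havcr2 (TIM-3, 0.51), the calcium-binding S100a4 (0.53), the galectin Lgals3 (0.59) and Ifitm3 (0.62). For Ifitm3 they were S100a4 (0.42), Havcr2 (0.55), S100a6 (0.57), Ctla2b (0.57) and Ifitm2 (0.62), and Ifitm1 ranked 67. P2ry14 averaged 11.17 ± 0.48 in NKT-like cells, 7.93 ± 0.75 in cultured CD4+ cells, 5.31 ± 0.25 in activated cells and 5.14 ± 0.13 in naive cells, the order of Ifitm1. S100a4 averaged 13.30 ± 0.49 in NKT-like cells, 11.98 ± 0.75 in cultured CD4+ cells, 7.63 ± 0.65 in activated cells and 7.88 ± 0.15 in naive cells, the order of Ifitm3. These are orders of means. The activated and naive arrays overlapped for P2ry14 (limma q = 0.544) and for S100a4 (limma q = 0.514).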

How the data were processed

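RNA of 12 T cell samples (5 CD8+ NKT-like, 3 cultured CD4+, 2 activated CD8+ and 2 naive CD8+) was hybridised to Affymetrix mouse genome-wide arrays, 1 array each. The authors deposited log2 expression values made by RMA, which corrects background, normalizes between arrays and summarises probes. The RMA version and whether all arrays were normalized together are not given in the sources used here. Values were used as deposited, without the 64 control probe sets. Groups came from the sample titles. A single limma 3.58.1 fit (R 4.3.3) over the 4 groups and 45037 probe sets gave 6 comparisons, with Storey q-values over all probe sets and a call at q of 0.01 or less, as in the methods of the study, with no fold minimum. Storey q-values can lie below the raw p where many probe sets changed. The log2 values keep no read or spot count, so the number of arrays limits the precision. Symbols came from the platform annotation (34945 probe sets with 1 symbol, 932 with several, 9160 with none). A gene was represented by its plain probe set with the highest mean. Where it had no plain one, the probe set of another type with the highest mean was used. Irf1, Psmb8, Mx1, Trim30a, Nedd4, Gem, S100a6 and Gzme were among the genes represented this way, and cross-hybridisation was not tested for them.

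Pairs of members were compared by exact permutation of the 8 expanded arrays (SciPy 1.17.1). Named were all members, Ifng, Ifngr1, Ifngr2, Irf1 and Usp18, the 5 largest passing interferon-induced genes in each direction of 3 comparisons, passing IFITM relatives and partners, the 5 genes on each side of the cluster, and the 5 genes most like each of Ifitm1, Ifitm2 and Ifitm3. The members and lists were chosen with earlier results of these data known, and the study itself lists IFITM genes from these samples, so their direction is not independent evidence. The fit was tested on simulated data. Alternatives covered the samples in the fit, the adjustment, threshold, variance prior, array weights, a filter on dim probe sets, normalization, probe sets of a gene, a replicate block and each array left out. RefSeq tables of GRCm38.p6 gave promoters and gene order, since the arrays carry no build.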

Additional observations from a re-analysis of the deposited data

Results flagged for a closer look

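In 37 groups of 5 NKT-like arrays, 1 for each gene checked, 5 held an array far from the other 4 by Dixon's criterion. Chance alone meets it in about 1 group in 20. None of these 5 was an IFITM member. Checked were the members, the largest interferon-induced changes, the genes most like the members, and Ifng, Ifngr1, Ifngr2, Irf1, Usp18 and Cd81. Other named genes, Jak2, Il10, Nedd4, Setd7 and the neighbours of the cluster among them, were not checked. AA467197 was at 10.16 in NKT-like replicate 1 and at 11.18 to 11.59 in the others. Esm1 was at 8.60 in NKT-like replicate 1 and at 10.53 to 11.30 in the others. Sp100 was at 7.73 in NKT-like replicate 1 and at 8.36 to 8.59 in the others. Iigp1 was at 6.89 in NKT-like replicate 3 and at 5.96 to 6.01 in the others. Irf1 was at 10.31 in NKT-like replicate 3 and at 9.56 to 9.65 in the others.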

How the results depend on the processing

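With 2 to 5 arrays a group, calls near the threshold depended on single arrays. The counts of called IFITM members in NKT-like minus naive, NKT-like minus activated, cultured CD4+ minus naive and activated minus naive cells (3, 3, 3 and 0) kept their value under every alternative run. In NKT-like minus cultured CD4+ cells 2 members were called, 1 when each pair of groups was fitted alone (Ifitm2 q = 0.0102), 1 with the replicate block (q = 0.077), and 1 to 2 with an array left out. In cultured CD4+ minus activated cells 3 were called, 0 with each pair fitted alone, 0 with the replicate block, and 1 to 3 with an array left out.

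Among the 73 other interferon-induced genes, the count in NKT-like minus naive cells was 30 and 8 with the replicate block. In NKT-like minus activated cells it was 7, and 21 at q of 0.05 or less, 3 with array weights, 12 with the filter on dim probe sets, 11 with quantile normalization and 3 with the replicate block. In cultured CD4+ minus naive cells it was 25, and 44 at q of 0.05 or less and 12 with the replicate block. In activated minus naive cells it was 13, and 3 with each pair fitted alone, 24 at q of 0.05 or less, 3 with array weights and 4 with the replicate block. In cultured CD4+ minus activated cells it was 7, and 4 with each pair fitted alone, 2 with array weights, 4 with quantile normalization and 1 with the replicate block. With an array left out, these counts ranged over 12 to 16 in NKT-like minus cultured CD4+, 10 to 31 in NKT-like minus naive, 5 to 10 in NKT-like minus activated, 13 to 30 in cultured CD4+ minus naive, 5 to 15 in activated minus naive and 3 to 8 in cultured CD4+ minus activated cells.

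The 5 member contrasts that passed lay, with an array left out, at 1.59 to 1.79 (Ifitm1 and Ifitm2), 2.92 to 3.13 (Ifitm1 and Ifitm3), 3.13 to 3.91 (Ifitm1 and Ifitm5), 1.29 to 1.41 (Ifitm2 and Ifitm3) and 1.34 to 2.29 (Ifitm2 and Ifitm5), where the exact test could not pass. Directions changed only where nothing was called. In NKT-like minus cultured CD4+ cells Ifitm5 ranged over -0.0170 to 0.18 with an array left out, the low end without cultured CD4+ replicate 3. In NKT-like minus activated cells it was at -0.0130 with quantile normalization and at -0.0973 to 0.232 with an array left out (low without activated replicate 1). In cultured CD4+ minus naive cells it lay at -0.0488 to 0.151 (low without naive replicate 1, and below 0 without cultured CD4+ replicate 2 as well), and in activated minus naive cells at -0.0982 to 0.231 (low without activated replicate 2, and below 0 without naive replicate 1 as well). In cultured CD4+ minus activated cells it was at 0.0147 with median centring, 0.0484 with the replicate block and -0.191 to 0.139 with an array left out (0.139 without activated replicate 2, and above 0 without cultured CD4+ replicate 3 as well). Ifitm3 lay at -0.768 to 0.125 in activated minus naive cells (0.125 without activated replicate 2). Causes were not tested.

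Whether the replicate numbers pair the samples could not be decided. Of 13 same-number pairs, 3 had deviations correlated above 0.1 (range -0.50 to 0.28). In a group of 2 arrays the deviations mirror each other, so the 13 pairs are not independent. Of 63 calls of other named genes, an alternative set chosen after seeing the data, 33 held with the replicate block, 42 with each pair fitted alone and 43 with array weights, and 639 of 756 held with an array left out. None reversed. Median centring moved the median over all probe sets in NKT-like minus naive cells to 0.02, against -0.10 as deposited.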
